A study of Caenorhabditis elegans with 2 samples.

Results

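Of the 1205 peaks in the authors' optimal list for the tagged protein C04F5.9, 297 (24.6%, exact 95% binomial interval 22.2 to 27.2) lay at a promoter shared by neighbouring genes. A peak was counted there when its summit lay within 500 bp of annotated transcript 5′ ends of at least 2 different protein-coding genes. Of the remaining peaks, 521 had 1 such gene within 500 bp and 387 had none. The choice used summit positions and the Ensembl annotation of the ce11 (WBcel235) genome, and no signal value. The 297 peaks touched 595 distinct genes, which is 2.98% of the 19973 protein-coding genes of the nuclear chromosomes. In 290 cases the window held 2 genes and in 7 it held 3.

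All data came from 1 group of 2 biological replicates. The worms were hermaphrodites of strain OP525, genotype unc-119(tm4063) III; wgIs525, in which a transgene expresses C04F5.9 fused at its C terminus to a GFP-FLAG tag. They had been bleached and starved, and were harvested as first-stage (L1) larvae 6 hours after synchronisation. Chromatin of whole larvae was sonicated and precipitated with an antibody to GFP. ChIP-seq reads that tagged protein rather than the native one, and averages over every tissue of the animal. With 1 group there is no second condition to test against, so counts and medians are given with exact 95% intervals that cover counting error only, and no test was made.

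In the compact genome of Caenorhabditis elegans, neighbouring genes are often transcribed away from each other from a short stretch of DNA, an arrangement called divergent or head to head. A factor bound between their starts lies upstream of both genes, and its position alone does not say which of them it acts on. Many worm transcripts are trimmed at their 5′ end by trans-splicing, and some genes are transcribed together in operons, so an annotated 5′ end can lie downstream of the position where transcription begins. C04F5.9 is annotated as a protein with a zinc finger domain of the C2H2 type, a fold that often binds DNA in a sequence-dependent way.

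Sequences under the strongest of these peaks are shown first, because several of them hold the same letters. In the first 4 the capitals mark copies of GTCTCG, then 3 bases of any kind, then CGATT, and, where present, TACG 18 to 22 bases further on. This pattern was noticed by looking at the strongest peaks. The first and the fourth differ from it by 1 base each, and the fourth lacks the TACG part. All are read 5′ to 3′ on the plus strand of ce11, at chrIV:1094299-1094372, chrII:10868907-10868980, chrII:8185171-8185244 and chrII:10872723-10872796. The last 2 are the 61 bases around the summits at malt-1 and ceh-38 (chrII:6951516-6951576) and at rps-0 and rbg-3 (chrIII:4754334-4754394), which hold no such copy within 100 bp, even with 1 base changed.
cct-8 and Y55F3AR.2, rank 1: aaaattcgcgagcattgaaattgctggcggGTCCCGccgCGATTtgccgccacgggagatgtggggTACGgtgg
gmps-1 and cap-2, rank 2: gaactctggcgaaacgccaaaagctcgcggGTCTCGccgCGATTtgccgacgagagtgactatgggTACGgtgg
mig-5 and cct-1, rank 5: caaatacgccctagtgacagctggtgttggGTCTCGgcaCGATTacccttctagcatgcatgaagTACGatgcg
cyn-4 and copz-1, rank 20: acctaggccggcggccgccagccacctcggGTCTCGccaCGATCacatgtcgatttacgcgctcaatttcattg
malt-1 and ceh-38, rank 8: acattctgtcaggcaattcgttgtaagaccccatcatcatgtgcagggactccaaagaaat
rps-0 and rbg-3, rank 14: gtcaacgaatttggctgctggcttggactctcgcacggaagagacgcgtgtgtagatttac

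The whole pattern with TACG included occurred 24 times in the genome, on either strand, and 13 of these copies lay inside optimal peaks. Of the 13 peaks, 4 were at shared promoters, and these were the peaks of rank 2, 3, 5 and 12. Ranks 3 and 12 lay at lin-53 and nra-2 and at F22D6.8 and F22D6.9. The shorter form without TACG occurred 376 times, with 26 copies inside optimal peaks. Of the 297 shared-promoter peaks, 11 (3.70%, 1.86 to 6.53) held the shorter form within 100 bp of the summit, beside 1.73% of single-gene promoter peaks and 1.29% of peaks with no gene. At the midpoints of 1564 divergent intervals of up to 1000 bp that held no optimal summit, the share was 0.448%. The 11 peaks spread over the whole list, from rank 2 to rank 1204, and the 7 below rank 12 lacked TACG at that distance. Among these 7 were fib-1 and mut-15 (rank 119), F29B9.11 and jmjd-1.2 (rank 256), and eef-1B.1 and aco-2 (rank 374). The intervals of the 3 peak classes overlap, and that of the midpoints was 0.180 to 0.920. The pattern was read from the strongest peaks, and the peaks of rank 2, 3, 5 and 12 are among the 11. The higher share at peaks than at midpoints is therefore partly built in and is no separate support for the pattern. A match of letters is not a mapped binding site.

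Signal, the value by which the authors' lists rank each peak here, was highest at a handful of these promoters and was ordered alike in both replicates. The optimal list had itself been selected on both replicates, so their like order is a description of the list and no separate support. At the strongest peak, between cct-8 and Y55F3AR.2, the signal was 20846.5 in replicate 1 and 8845 in replicate 2, and it ranked first in both lists. cct-8 encodes a subunit of the cytosolic chaperonin that folds actin and tubulin. Between gmps-1, which encodes GMP synthetase, and cap-2, a subunit of the actin capping protein, the signal was 17675 in replicate 1 and 7511 in replicate 2. Between lin-53, a histone-binding protein of chromatin complexes, and nra-2, the signal was 15928 and 6822 in the same order. At mig-5, a Dishevelled protein of Wnt signalling, and cct-1, another chaperonin subunit, it was 14562 and 6567. These 4 peaks ranked 1, 2, 3 and 5 in the optimal list and in each replicate. Signal scales are set by each calling run, so the lower numbers of replicate 2 do not show weaker binding.

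Below these the signal dropped steeply. At malt-1, the worm relative of a paracaspase, and ceh-38, a homeobox gene of the ONECUT class, the signal was 5706 in replicate 1 and 2895 in replicate 2, again at rank 8 in every list. At rps-19, a ribosomal protein gene, and hsr-9 it was 1749.8 and 805. F22D6.8 and F22D6.9 had 1383 and 618, and rps-0 and rbg-3 had 958 and 467. By the 25th shared-promoter peak, at F25H9.6 and F25H9.7, the signal had fallen to 206 in replicate 1 and 112 in replicate 2. The replicates ordered these pairs nearly alike, with the largest shift among the first 25 at rps-20 and ekl-4, rank 111 in replicate 1 and 51 in replicate 2.

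**Figure D1:**
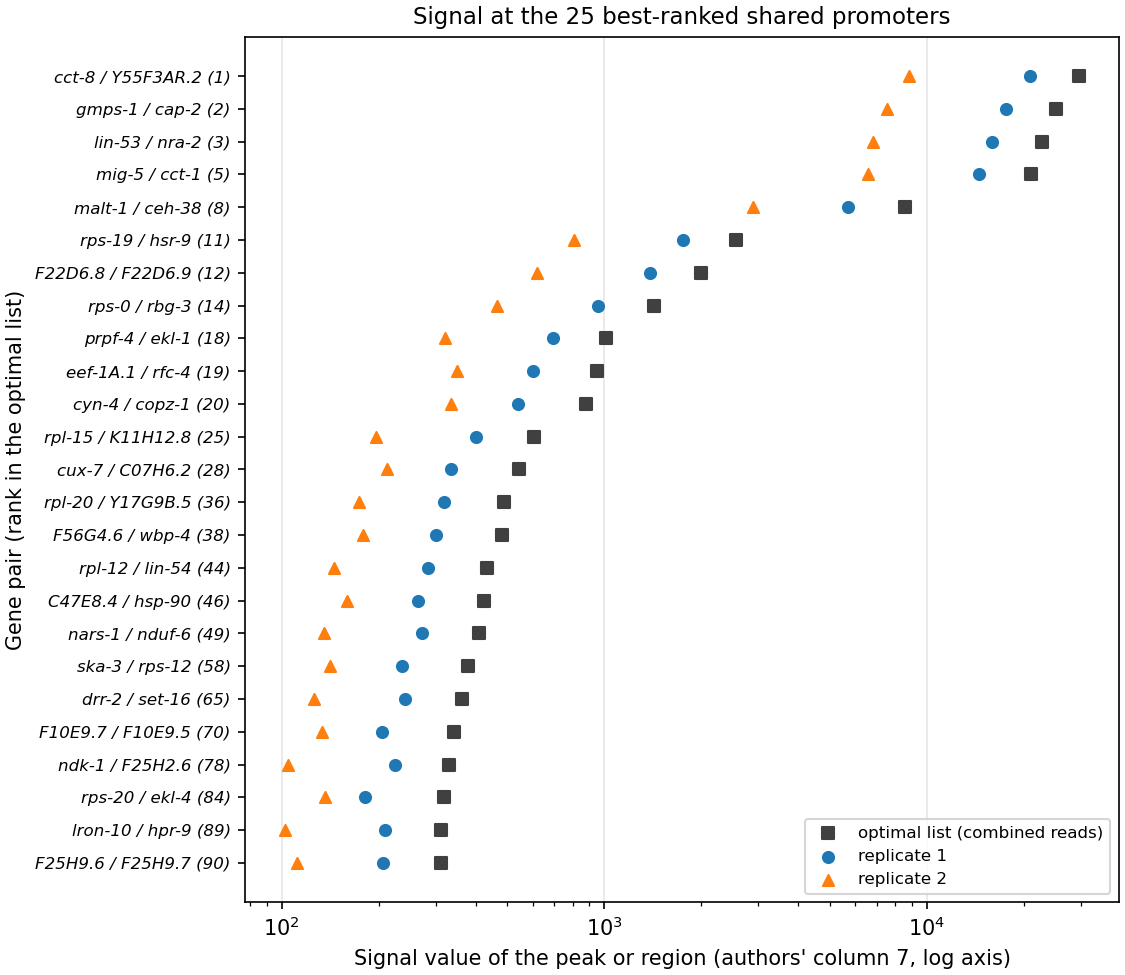
Signal (log axis) at the 25 shared-promoter peaks with the highest signal, in the optimal list (squares), replicate 1 (circles) and replicate 2 (triangles); each row is a gene pair with its rank. The first 4 pairs lie far above the rest in both replicates, and the last lies at 206 and 112.

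As a group, the shared-promoter peaks were not ranked apart from peaks at single promoters. Their median rank in the optimal list was 550 (486 to 601), beside 553 (508 to 613) for single-gene promoters and 718 (662 to 763) for peaks with no gene. The median signal was 120 at shared and 120 at single promoters, and 103 at peaks with no gene. Shared promoters supplied 5 of the first 10 peaks, 12 of the first 25, 18 of the first 50 and 27 of the first 100. Single-gene promoters supplied 5, 12, 23 and 46 of these. For shared promoters, the interval of their share of the first 100, 27% (18.6 to 36.8), covers their 24.6% of the whole list. So do those of the first 10 (18.7 to 81.3) and 50 (22.9 to 50.8). The interval of the first 25, 48% (27.8 to 68.7), lies above it. The 297 held 44.2% of the signal summed over the list, and the 521 single-gene promoter peaks held 40.6%. These sums weigh the highest peaks most and do not describe a typical peak, since both medians were 120. In the optimal list, cct-8 and Y55F3AR.2 had 29680.6, gmps-1 and cap-2 25161.4, lin-53 and nra-2 22755.8, and mig-5 and cct-1 21099.9. The highest signal at a single-gene promoter was 22457.6.

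In the replicate lists, each ranked by its own signal, the median rank of the shared-promoter peaks was 560 (490 to 622) in replicate 1 and 508.5 (444 to 589) in replicate 2. Single-gene promoter peaks had medians of 568 and 563. All 297 overlapped a region of replicate 1 and 296 overlapped one of replicate 2. The exception was the peak between mrps-15, a mitochondrial ribosomal protein gene, and asg-1, a subunit of ATP synthase, at rank 609 in the optimal list and 830 in replicate 1. When each replicate list was limited to its first 1205 regions, 228 of the 297 (76.8%, 71.5 to 81.5) overlapped a region of both, beside 73% of all optimal peaks. Selection of the optimal list on both replicates favours such overlaps, so these counts describe the list only.

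Ranks diverged most in the lower part of the list. T28F4.4 and T28F4.8 ranked 769 in replicate 1 and 2996 in replicate 2, with signals of 64.5 and 16.1. Y37E3.8 and phb-1, a prohibitin of mitochondria, went the other way, ranking 2981 in replicate 1 and 760 in replicate 2. mrpl-45 and Y119D3B.12 ranked 561 and 2419. Over the 296 peaks the median absolute difference of rank was 164.5 (134 to 216), beside 191 over all optimal peaks, and 159 ranked higher in replicate 1.

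**Figure D2:**
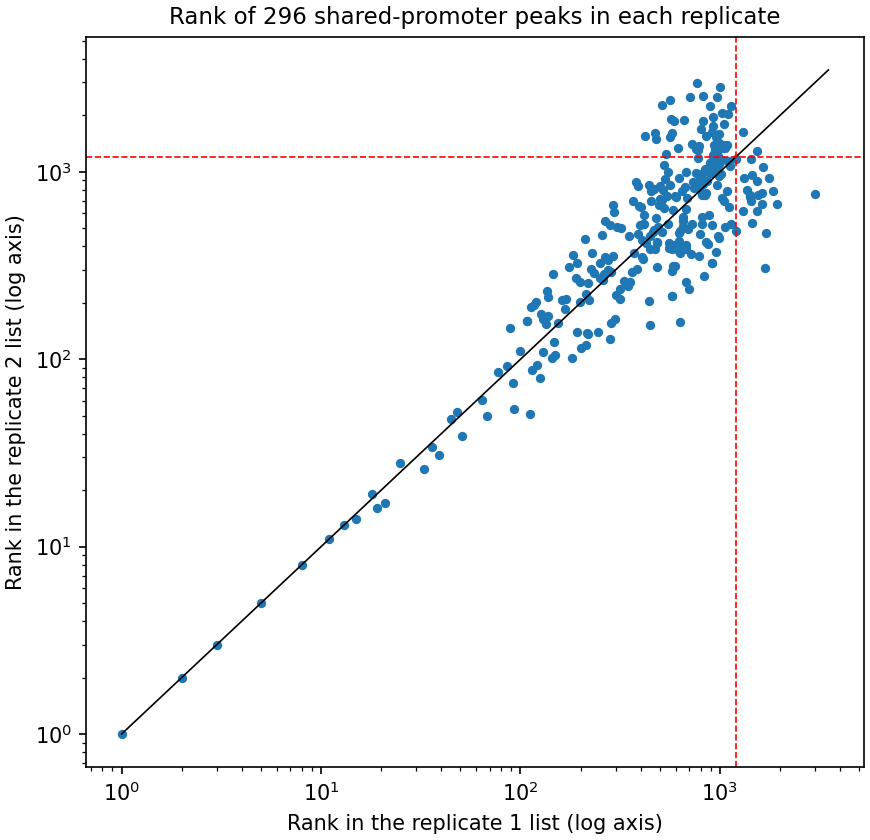
Rank of 296 shared-promoter peaks in the list of replicate 1 (x axis, log) and of replicate 2 (y axis, log). Dashed lines mark rank 1205 and the solid line equal rank; the strongest peaks sit on the line and the spread widens towards lower ranks.

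The genes stood head to head at nearly all of these promoters. At 254 of the 297 (85.5%, 81.0 to 89.3) the pair was divergent and the summit lay between the annotated 5′ ends. Another 30 (10.1%, 6.92 to 14.1) were divergent pairs with the summit outside the interval, inside one of the genes. Only 8 peaks had their genes on the same strand, and 5 had genes on opposite strands whose 5′ ends crossed. Counting every arrangement, the summit lay upstream of or at both 5′ ends in 258 cases (86.9%). Strand arrangement is a property of the annotation and of the rule that chose the peaks. It was not counted at positions without a peak, so its share is no result about binding.

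Summits outside the interval stayed close to one gene. Their median distance was 17.5 bp from the nearer 5′ end and 228.5 bp from the farther one. The strongest was at malt-1 and ceh-38, where the summit lay 20 bp inside ceh-38 and 246 bp upstream of malt-1. At F22D6.8 and F22D6.9 it lay 106 bp inside F22D6.8 and 243 bp upstream of F22D6.9. At F25H9.6 and F25H9.7, whose 5′ ends are 15 bp apart, it lay 8 bp inside F25H9.7. F01F1.11 and F01F1.3 (12 bp inside F01F1.3) and mcrs-1 and atp-1 (7 bp inside atp-1, a subunit of ATP synthase) followed.

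Pairs in other arrangements were few. The same-strand peaks had a median rank of 515.5 in the optimal list. The strongest of them, at nspg-9 and dld-1, a dehydrogenase subunit shared by mitochondrial enzyme complexes, ranked 136 in replicate 1 and 231 in replicate 2. egl-30, the worm Gq protein, and C53H9.4 ranked 170 and 211. pqn-51 and K11D12.14 ranked 316 and 209, with 5′ ends 29 bp apart. The crossed pairs had a median rank of 822 in the optimal list and began at rank 676 with rpb-7, a subunit of RNA polymerase II, and Y54E10BR.2, whose 5′ ends overlap by 3 bp.

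Divergent pairs with the summit between them were spaced by a median of 384.5 bp (358 to 413), with quartiles of 271.75 and 527.75 bp and extremes of 74 and 839 bp. The widest was the pair of rpl-5, a ribosomal protein gene, and col-38, a cuticle collagen gene, at chrII, where the summit lay 390 bp from rpl-5 and 449 bp from col-38. This peak ranked 198 in replicate 1 and 202 in replicate 2. rpl-15 and K11H12.8 followed at 814 bp, and F29B9.11 and jmjd-1.2, a histone demethylase, at 790 bp. The window admits no divergent pair wider than 1000 bp when the summit lies between, and it drops wide pairs whose summit is off centre. Over all divergent intervals of up to 1000 bp in the genome the median spacing was 473 bp (454 to 497). Over those that held an optimal summit, with no limit from the window, it was 444 bp (398 to 477).

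Within the interval the summit lay a median of 127.5 bp (110 to 140) from the nearer 5′ end and 265 bp (252 to 280) from the farther one. The summits of replicate 1 gave 126.5 and 264.5 bp, and those of replicate 2 gave 126 and 261 bp. By the replicates' own summits, 249 of 254 lay between the 5′ ends in replicate 1 and 248 of 253 in replicate 2. The summits of the optimal list and of the replicates differed by a median of 6 bp in replicate 1 and 9 bp in replicate 2. The nearer gene was on the plus strand at 148 pairs and on the minus strand at 106.

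The position of the summit in the interval varied with its width. The central part, from 25% to 75% of the way between the 5′ ends, makes up 50% of the length and held 171 of the 254 summits (67.3%, 61.2 to 73.1). It held 172 of 254 by the summits of replicate 1 and 173 of 253 by those of replicate 2. Beyond a spacing of 500 bp the window itself keeps summits away from the ends. Among the 178 pairs spaced by up to 500 bp, where the window sets no limit, the central part held 108 (60.7%, 53.1 to 67.9). At spacings of 1 to 200 bp it held 8 of 23 (34.8%, 16.4 to 57.3), and at 201 to 400 bp 66 of 112 (58.9%, 49.2 to 68.1). The median distance from the nearer 5′ end grew from 29 bp at spacings up to 200 bp to 84 bp at 201 to 400 bp and 180 bp at 401 to 600 bp. A summit between the ends is never farther from the nearer end than the midpoint is. This distance therefore tends to grow with spacing by construction. When every optimal summit inside a divergent interval of up to 1000 bp was counted, with no limit from the window, the central part held 76.7% (66.4 to 85.2) at 401 to 600 bp, 60.3% (46.6 to 73.0) at 601 to 800 bp and 51.9% (31.9 to 71.3) above that. The last 2 intervals include the 50% given by length. At the pair of gmps-1 and cap-2, spaced by 476 bp, the summit lay 232 bp from gmps-1 and 244 bp from cap-2. At lin-53 and nra-2 it lay 240 bp and 227 bp away in that order.

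**Figure D3:**
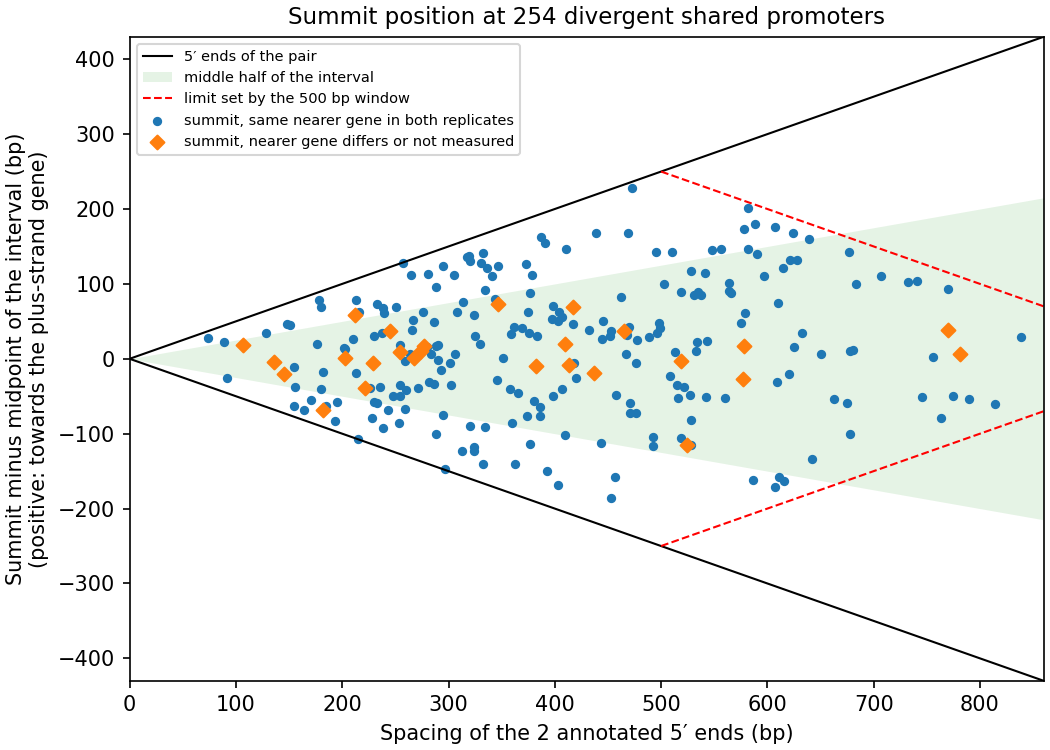
Position of the summit at the 254 divergent pairs with the summit between the 5′ ends, as distance from the midpoint (y axis, bp; positive towards the plus-strand gene) against the spacing of the 5′ ends (x axis, bp). Solid lines are the 5′ ends, shading is the central 50% of the interval, and dashed lines are the limit set by the 500 bp window. Diamonds are pairs whose nearer gene differed between replicates. The pair mrps-15 and asg-1, with no replicate 2 region, is drawn as a dot, although the legend places it with the diamonds. Of the 254 points, 171 lie in the shaded part.

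Naming a single target by distance gave the same gene in both replicates at most pairs and not at others. By the summit of each replicate, the nearer gene was the same in 269 of 296 peaks (90.9%, 87.0 to 93.9) and differed in 27. At the 27 the difference between the distances to the 5′ ends was a median of 37 bp, beside 127 bp at the other 269. The strongest case was cyn-4, a cyclophilin, and copz-1, a subunit of the coatomer of transport vesicles. Its summit lay 135 bp from cyn-4 and 133 bp from copz-1, and replicate 1 favoured cyn-4 and replicate 2 copz-1. rps-15 and F36A2.9 (397 and 384 bp), rpl-22 and ify-1 (238 and 199 bp), sup-35 and Y48A6C.4, and the proteasome gene pas-4 with rpb-3 (156 and 121 bp) were the next by signal.

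The genome holds 1867 divergent intervals of protein-coding genes of up to 1000 bp, and 303 of them (16.2%, 14.6 to 18.0) held an optimal summit. The share was 8.66% of 277 intervals of up to 200 bp, 21.9% of 502 at 201 to 400 bp, 19.7% of 432 at 401 to 600 bp, 15.7% of 369 at 601 to 800 bp and 9.06% of 287 above that. Per length the short ones held more, with 0.661 summits per kb up to 200 bp and 0.751 at 201 to 400 bp, falling to 0.105 above 800 bp. Over all these intervals there were 0.335 summits per kb. The 500 bp upstream of the 16273 genes outside such intervals held 0.0492 per kb, and 2.47% of these genes had a summit there. Those stretches can lie inside operons or overlap a neighbouring gene, and this comparison was not tested.

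**Figure D4:**
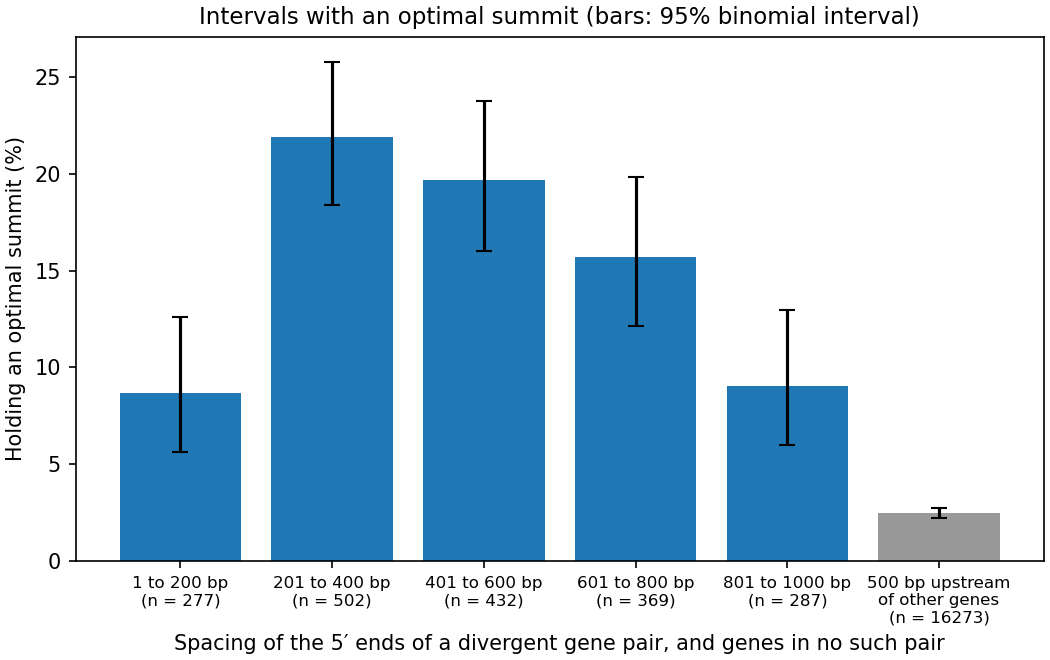
Percent of divergent intervals holding an optimal summit by spacing of the 5′ ends, and of 500 bp stretches upstream of genes in no such interval (grey); error bars are exact 95% binomial intervals. The highest bar is 21.9% at 201 to 400 bp and the grey bar is 2.47%.

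Genes of the ribosome were the largest named group at these promoters. The lists used here were drawn up by gene symbol and describe counts only. Of 83 cytosolic ribosomal protein genes, 28 (33.7%) lay at a shared-promoter peak, beside 2.98% of all protein-coding genes. Another 21 (25.3%) lay at a single-gene promoter peak, beside 2.57% of all, so a high share was not particular to shared promoters. Of the 83, 49 are in a divergent interval of up to 1000 bp, beside 3700 of all 19973 genes. After rps-19 and rps-0, the strongest were rpl-15 with K11H12.8, ranking 25 in replicate 1 and 28 in replicate 2, and rpl-20 with Y17G9B.5, ranking 36 and 34. At 2 peaks both genes were of this list, rpl-36 with rps-14 (rank 262 in replicate 1, 285 in replicate 2) and rpl-24.1 with rps-10 (958 and 372). Of 70 mitochondrial ribosomal protein genes 11 (15.7%) were at shared-promoter peaks, led by mrpl-18 at rank 263, mrps-35 at 264 and mrps-7 at 283. Translation factors had 8 of 45 genes there, led by eef-1A.1, which brings aminoacyl-tRNA to the ribosome, opposite rfc-4, and eef-2. Of the 34 genes for nucleolar and ribosome assembly proteins, 9 were there, among them fib-1, the fibrillarin that methylates ribosomal RNA, and rbd-1. At single-gene promoter peaks lay 5.71% of mitochondrial ribosomal protein genes, 17.8% of translation factors and 14.7% of nucleolar and assembly genes.

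Genes of other broadly used machinery followed. Chaperones had 16 of 92 genes (17.4%) at these peaks. Besides cct-8, cct-1 and cyn-4 the strongest was hsp-90, which ranked 51 in replicate 1 and 39 in replicate 2, opposite C47E8.4. Respiratory chain and ATP synthase genes had 17 of 72 (23.6%), led by nduf-6 of complex I opposite nars-1, an asparaginyl-tRNA synthetase. The proteasome had 8 of 33 (24.2%), led by rpn-3, whose partner was the chaperone gene hsp-110, and pbs-7. Secretory genes had 14 of 109, among them trap-3 and sec-61.B, both of the machinery that moves proteins into the endoplasmic reticulum, at a single peak. Splicing factors had 8 of 56, with rsp-1 and rsp-2 at one peak. RNA polymerase II, TFIID and Mediator genes had 9 of 61, led by mdt-18. Chromatin regulators had 12 of 96. After lin-53 these were led by lin-54, a DNA-binding subunit of the DREAM complex, set-16, a histone methyltransferase, and set-21. Replication and cell cycle genes had 8 of 82, among them rfc-4 and top-2, a topoisomerase, and nuclear pore and transport genes had 7 of 43, among them npp-3. Aminoacyl-tRNA synthetases had 3 of 32. At single-gene promoter peaks lay 10.9% of chaperones, 15.3% of respiratory, 3.03% of proteasome and 11.9% of secretory genes. So did 8.93% of splicing, 4.92% of polymerase, TFIID and Mediator, and 10.4% of chromatin genes. For replication, nuclear pore and synthetase genes the shares were 7.32%, 11.6% and 6.25%.

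Large gene families were rarely found here. Chemoreceptor genes, the largest family here with 1357 members, had 3 at shared-promoter peaks, or 0.221%. These were sri-5, srh-16 and srh-2. Nuclear hormone receptors had 2 of 269, nhr-142 and nhr-47, and cuticle collagens 3 of 180, col-38, col-71 and bli-6. Their partners were genes of other lists or of none, such as rpl-5 opposite col-38. Only 144 of the chemoreceptor genes, 19 of the receptors and 26 of the collagens are in a divergent interval of up to 1000 bp. Shares within and outside such intervals are given below, and the cause of the low counts was not tested.

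The same lists can be read within divergent intervals only. Of all 3700 genes in a divergent interval of up to 1000 bp, 17.3% lay at an optimal peak, and of the 16273 other genes 2.83%. Among cytosolic ribosomal protein genes the shares were 63.3% of 49 and 52.9% of 34. Among chromatin regulators they were 65% of 20 and 11.8% of 76, and among RNA polymerase II, TFIID and Mediator genes 64.3% of 14 and 6.38% of 47. Among proteasome genes they were 38.1% of 21 and 8.33% of 12. Lower shares were found for aminoacyl-tRNA synthetases, 25% of 12 and 10% of 20, and for replication and cell cycle genes, 24.2% of 33 and 12.2% of 49. Cuticle collagens had 11.5% of 26 and 0.649% of 154, and nuclear hormone receptors 10.5% of 19 and 0.8% of 250. Chemoreceptors had 2.08% of 144 and 0.0824% of 1213. A peak between a pair counts for both genes and so raises the share in intervals. Which of the 2 genes the factor acts on was not tested.

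The summit lay closer to the partner than to the named gene in some lists. At 15 peaks between a divergent pair with 1 chaperone gene, that gene was the farther one at 14 and the nearer at 1. Its median distance was 336 bp, and that of the partner 179 bp. At the strongest, cct-8 lay 442 bp from the summit and Y55F3AR.2 179 bp. The one nearer chaperone gene was dnj-29, 182 bp from the stronger of 2 summits that it shares with ndua-2, and it was the farther gene at the other. Cytosolic ribosomal protein genes were the farther gene at 16 pairs and the nearer at 7, with medians of 313 and 172 bp for the gene and its partner. rpl-10, at 370 bp, faced ints-11 at 33 bp, and rps-0, at 313 bp, faced rbg-3 at 60 bp. rpl-12, at 47 bp, faced lin-54 at 346 bp and is among the 7. Chromatin regulators were the farther gene at 9 pairs and the nearer at 2. Proteasome genes were farther at 2 and nearer at 5, and splicing factors farther at 1 and nearer at 4. The 21 ribosomal protein genes at single-gene promoter peaks lay a median of 291 bp (261 to 333) from the summit. These counts are small, share peaks between lists, and were chosen for description after the values were seen.

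**Figure D5:**
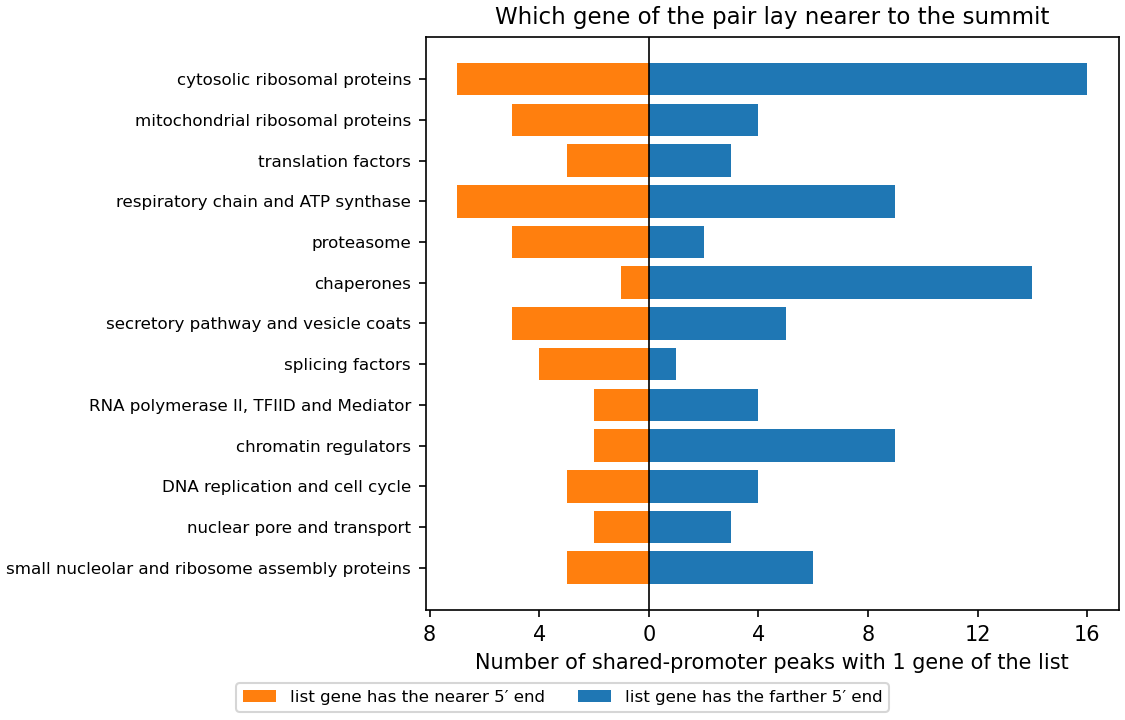
Number of divergent pairs with the summit between them and 1 gene of a list, split by whether that gene had the nearer (orange, left) or the farther (blue, right) 5′ end, for lists with at least 5 such pairs. Chaperones show 1 and 14, cytosolic ribosomal proteins 7 and 16.

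Beyond the pattern of the strongest peaks, 8-letter words known from earlier results on these peaks were counted within 100 bp of the summits, on either strand. GCAAACAC was present at 37 shared-promoter peaks (12.5%, 8.93 to 16.8), at 9.21% of single-gene promoter peaks and at 4.39% of peaks with no gene. Windows of the same length upstream of every protein-coding gene held it in 1.88%. AGACGCAG was present at 22 (7.41%, 4.70 to 11), at 13.2% of single-gene promoter peaks and 18.3% of peaks with no gene, and in 2.8% of windows upstream of all genes. At the midpoints of divergent intervals without an optimal summit the shares were 3.58% and 2.37%. Because the words were taken from earlier results on these peaks, higher shares at peaks than at windows or midpoints are partly built in. They are no separate support for the words. Among the 3 classes of peaks, GCAAACAC had its highest share at shared promoters and AGACGCAG its lowest, without a test of either order.

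The copies of the words at the best-ranked of these promoters are shown because the bases beside GCAAACAC recur. The word is in capitals, and so are ACG starting 4 bases after it and TGC starting 13 bases after it where they occur. Each line is read on the strand that spells the word. In ce11 they lie at chrIV:654915-654962, chrIV:2389161-2389208, chrIII:11317202-11317249 (minus strand), chrIII:12874885-12874932, chrIII:13643693-13643740 and chrII:11874784-11874831.
rpl-15 and K11H12.8, rank 25: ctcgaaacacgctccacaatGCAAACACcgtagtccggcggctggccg
sec-61.B and trap-3, rank 99: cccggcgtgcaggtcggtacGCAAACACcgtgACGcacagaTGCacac
teg-1 and mcm-10, rank 160: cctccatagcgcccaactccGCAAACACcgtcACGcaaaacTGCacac
mrg-1 and spcs-2, rank 247: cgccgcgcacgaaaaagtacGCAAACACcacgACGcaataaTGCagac
drr-2 and set-16, rank 65: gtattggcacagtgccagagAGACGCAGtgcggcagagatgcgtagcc
npp-3 and top-2, rank 133: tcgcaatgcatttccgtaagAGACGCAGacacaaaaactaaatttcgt

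Of 39 copies of GCAAACAC near the summits of shared-promoter peaks, 16 (41%) had both ACG and TGC at these distances. Of 68 copies near other optimal summits 23 (33.8%) had both, and of 4363 copies elsewhere in the genome 149 (3.42%). These letters were picked after the copies had been seen. In the genome 188 copies carried all 3 elements and 39 of them lay within 100 bp of an optimal summit, 16 at shared promoters. At rpl-15 and K11H12.8, the strongest of the 37, neither ACG nor TGC followed the word.

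Few peaks lay within 10 bp of the edge of the window. The member nearest to it was the peak at ash-2 and Y17G7B.20, at 493 bp from the farther gene and rank 316. Just outside were the peaks at ifet-1 and rps-1, at 504 bp and rank 41, and at rict-1 and gfm-1, at 508 bp and rank 205. Membership still depended on the width of the window. The share of optimal peaks at shared promoters was 11.2% at 250 bp and 37.1% at 1000 bp.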

How the data were processed

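Per the labels, ChIP-seq was made from 2 biological replicates of 1 strain. The authors deposited a list of regions for each replicate (30000 and 28005), for both combined (30000), and an optimal list of 1205 peaks thresholded by the irreproducible discovery rate (IDR). Per the companion texts, a control alignment served for the calling. No source used here names the aligner, the caller or the IDR threshold. Signal values deposited by the authors rank peaks within a list only. The −log10 q value deposited by the authors was 2.93 in every optimal peak. Read depth is unknown. Controls, coverage and ce10 lists were not used here.

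Summits were assigned to all 29784 transcript 5′ ends of protein-coding genes in Ensembl release 115, and sequences were read from the RefSeq copy of WBcel235, with Python 3.11.15, NumPy 2.4.6 and SciPy 1.17.1. A replicate region was matched when it overlapped the optimal peak by at least 1 bp, taking its best rank. Intervals are exact binomial (Clopper-Pearson) or order-statistic 95% intervals. The assignment was tested on simulated positions. Members, gene lists and words were chosen with earlier results of these data known. Named genes are those at the 25 strongest members, the strongest of each list and arrangement, same-list pairs, extremes of spacing, and the peaks most different between replicates. Alternatives are given in the closing section.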

Additional observations from a re-analysis of the deposited data

How the results depend on the processing

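Of 103 alternatives over 15 results, 85 stayed within the 95% interval of the reported value. With a window of 250 bp the share of peaks at shared promoters was 11.2% and with 1000 bp 37.1%, and it was 27.7% among the higher-signal part of the list. In the same order of windows, the median spacing was 259 and 476 bp, the nearer 5′ end 86.5 and 144 bp, the farther one 172.5 and 309.5 bp, and the share of the 100 strongest peaks 14% and 42%. At 250 bp the nearer gene matched between replicates in 85.9%. At 1000 bp 75.6% of peaks were divergent with the summit between, and 14.1% of divergent pairs held a summit. In the higher-signal part 75.2% of summits were central, and median replicate ranks were 291 and 294, since the list was shorter. A narrower central part held 50.8%. With the top regions of each replicate alone, shared promoters held 23.5 to 24.0% of peaks, 84.8 to 87.5% divergent with the summit between, spacing 382.5 to 398 bp, nearer end 125.5 to 129 bp, farther end 265 to 267 bp, central share 66.8 to 67.1%, divergent pairs with a summit 15.5 to 16.3%, AGACGCAG 7.42 to 7.96% and GCAAACAC 11.7 to 11.8%. No paired analysis was possible because the replicates form 1 group. Unknown read depth limits what can be said of weak peaks.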

Other observations

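Shared-promoter peaks were spread unevenly over the chromosomes. Chromosome III held 80 of the 297 (26.9%) and chromosome I 77 (25.9%), and chromosome X held 5 (1.68%, 0.549 to 3.88). Of single-gene promoter peaks 19.6% were on III, 20.3% on I and 9.40% on X. Of peaks with no gene the shares were 20.9%, 18.1% and 21.7% in the same order. Of all 1205 optimal peaks, 263 were on III and 253 on I. Chromosomes III and I carry 13.2% and 14.4% of the protein-coding genes, so a high share there was not particular to shared promoters. X carries 13.7% of the protein-coding genes and 4.55% of the divergent intervals of up to 1000 bp. Of its 85 such intervals 4.71% held an optimal summit, beside 27.2% of 313 on chromosome III, 22.4% of 348 on chromosome I and 8.13% of 443 on chromosome V. The members on X were sec-15 and C28G1.2 (rank 373 in replicate 1, 370 in replicate 2), C27C12.1 and C27C12.4 (573 and 387), nmat-1 and ucr-2.1 (782 and 810), dnj-14 and glit-1 (1448 and 531), and trap-2 and ile-2 (921 and 1756).

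At 3 gene pairs a pair of peaks shared the same promoter. fib-1 and mut-15 had summits 221 bp apart at ranks 119 and 622, dnj-29 and ndua-2 199 bp apart at ranks 403 and 806, and luc-7L3 and sftb-6 202 bp apart at ranks 542 and 1169. At 14 members the summit lay inside an annotated non-coding RNA gene (4.71%), beside 6.91% at single-gene promoters and 13.7% at peaks with no gene. Windows with 3 genes included those at atp-2, mdt-9, pfd-4 and smc-3.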
